A study of Arabidopsis thaliana with 4 samples.

Results

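The ethylene signalling genes described here are 10 Arabidopsis thaliana loci chosen by name, out of 33602 loci in a table of small RNA reads. They are the receptor genes ETR1 (AT1G66340), ERS1 (AT2G40940), ERS2 (AT1G04310) and EIN4 (AT3G04580), the kinase gene CTR1 (AT5G03730), EIN2 (AT5G03280), the transcription factor genes EIN3 (AT3G20770) and EIL1 (AT2G27050), and the F-box genes EBF1 (AT2G25490) and EBF2 (AT5G25350). RNA below 200 nt was sequenced from aerial tissue of 18-day-old plants of 4 genotypes, with 1 library each. Plants were grown at 22 °C with 16 h of light and 8 h of dark. The wild type was Col-0. Plants with the alleles ein5-1 and ski2-3, the double mutant, are impaired in the 5′ to 3′ exonuclease EIN5 and in SKI2, a helicase of the exosome pathway that degrades mRNA from its 3′ end. Plants with the allele rdr6-11 are impaired in RDR6, the polymerase that copies single-stranded RNA so that it can be cut into small interfering RNAs (siRNAs). The triple mutant, rdr6-11 ein5-1 ski2-3, carries all 3 alleles. Sets of 4 values below are in the order wild type, double mutant, rdr6-11, triple mutant. The question was which small RNA reads appear when mRNA decay is impaired and which of them depend on RDR6.

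Ethylene receptors sit in the endoplasmic reticulum membrane and, without the hormone, keep the kinase CTR1 active, which holds EIN2 in check. With ethylene, a part of EIN2 moves to the nucleus, and the transcription factors EIN3 and EIL1 accumulate and switch on response genes. EBF1 and EBF2 are the F-box subunits that mark EIN3 and EIL1 for degradation. EIN5 itself was found through ethylene-insensitive mutants, and its loss is known for a build-up of EBF1 and EBF2 transcripts, so mRNA decay and this pathway meet at the F-box genes.

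EBF1 and EBF2 are close relatives, and a stretch of each coding sequence is shown because short reads from identical stretches could be counted at either gene. In the RefSeq TAIR10.1 reference the coding sequences were 66.3% identical over 1850 aligned bases. Capitals mark their longest shared run of 23 bases, within 63 bases that differ at 14 positions, read on the coding strand (bases 226 to 288 of the EBF1 coding sequence on chromosome 2, bases 199 to 261 of that of EBF2 on chromosome 5).
EBF1: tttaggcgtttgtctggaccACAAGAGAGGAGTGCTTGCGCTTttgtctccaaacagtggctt
EBF2: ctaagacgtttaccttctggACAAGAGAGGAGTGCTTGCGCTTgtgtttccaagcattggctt
Only 3 of the 3403 windows of 21 bases in the EBF1 gene also occurred in EBF2, which is the number a run of 23 bases holds. In the whole genome 99.1% of the EBF1 windows and 99.8% of the EBF2 windows were found once. EIN3 and EIL1 had the most windows in common among all pairs of the 10 genes, 95, and 95.4% and 94.9% of their windows were found once. Their read counts could thus be partly exchanged, depending on how the authors placed reads with several matches, for which no source used here gives a rule.

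Libraries held 621515 to 878632 reads in the table. Levels are in RPM (reads per 1000000 reads of the table), on which scale 1 read was worth 1.14 to 1.61, and a count of 0 allows up to 3 reads, or 3.41 to 4.83 RPM. The authors' RPKM values imply 2 sets of locus lengths. Col-0 and the double mutant share one, and rdr6-11 and the triple mutant share the other. Any difference in handling between the sets therefore cannot be told apart from the RDR6 genotype. Of the 10 genes only CTR1 had a different length in each set (5351 and 5341 nt). The mutated genes held at most 4 reads in any library, too few to check the labels. Leaf markers were present in every library (288 to 1006 summed reads over 5 genes, none at 0), while 4 root markers summed to 1 or 2 reads and 4 flower markers to 0 to 11. As each genotype is 1 library, differences could not be checked against replicates, and all intervals are 95% counting intervals, which do not cover variation between plants or copies made by PCR. Reads at a gene can be siRNAs or fragments of its mRNA, since the table gives neither read size nor strand. More RNA per cell and more cells of a type cannot be told apart in whole tissue.

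Small RNA reads at these genes came mainly from one locus and from the decay mutants. Together the 10 genes held 31, 232, 32 and 318 reads, which is 38.4, 373, 36.4 and 362 RPM. EBF1 alone supplied 74.6% (68.5 to 80.0) of these reads in the double mutant and 67.0% (61.5 to 72.1) in the triple mutant, but 19.4% (7.45 to 37.5) in Col-0 and 0 of 32 in rdr6-11. The summed level was 9.73-fold higher (6.67 to 14.7) in the double mutant than in the wild type and 9.95-fold higher (6.91 to 14.8) in the triple mutant than in rdr6-11. Without EBF1 the same comparisons gave 3.07-fold (1.89 to 5.11) and 3.29-fold (2.19 to 5.05). Over all protein-coding genes, the share of reads was 9.90%, 18.8%, 10.1% and 16.6%, so a general gain at protein-coding genes went with these folds, and its part in them was not tested.

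**Figure D1:**
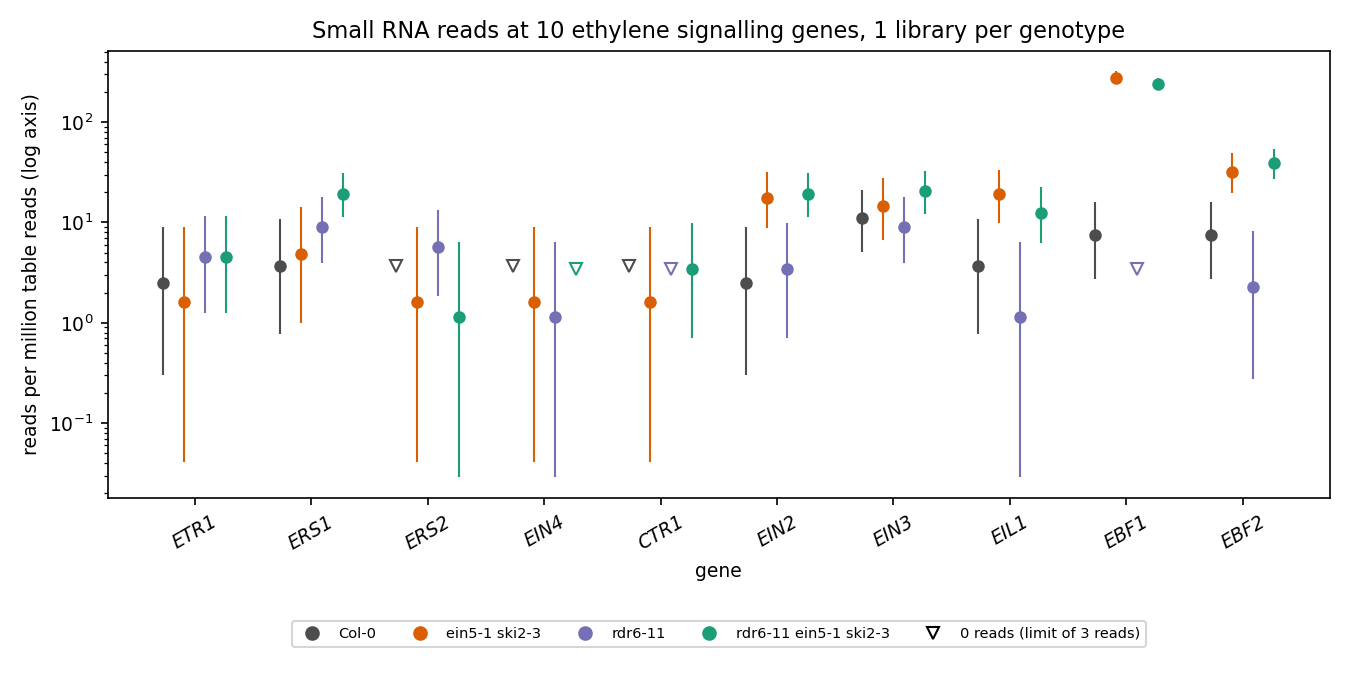
RPM (log axis) at each of the 10 genes, with 1 point per library coloured by genotype, 95% counting intervals as bars and open triangles at the limit of 3 reads where the count was 0. EBF1 stands at 278 and 243 RPM in the double and triple mutant and at or under 7.42 RPM in the other libraries.

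The F-box gene EBF1 held 6, 173, 0 and 213 reads (7.42, 278, 0 and 243 RPM). Both libraries with the decay mutations were far above both without them, with RDR6 intact or mutated. The level was 37.5-fold higher (16.9 to 104) in the double mutant than in the wild type and 32.7-fold higher (14.8 to 90.1) in the triple mutant than in Col-0, comparisons that share the Col-0 library. Against rdr6-11, with 0 reads, the triple mutant was 71.1-fold higher when 3 reads were taken as the limit in rdr6-11, and the near end of the counting interval was 57.3-fold. No other annotated gene overlaps EBF1 in TAIR10.1.

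EBF1 stood at a similar level in both decay mutants. The triple mutant stood at 0.872 times the level of the double mutant, with an interval from 0.710 to 1.07 that holds no change and reaches at most a 1.41-fold reduction. This direction depended on scaling: with libraries scaled to reads at miRNA genes EBF1 was 1.5-fold higher (1.22 to 1.84) in the triple mutant, a scaling that shifts every locus by 0.78 on the log2 scale. Without the decay mutations EBF1 was 2.17-fold lower in rdr6-11 than in Col-0 when the 0 reads of rdr6-11 were set to 3, against 6 in Col-0. The near end of the counting interval was 1.28-fold lower.

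At EBF2 both decay mutant libraries were also above both others, at lower levels than those of EBF1 in the same libraries. It held 6, 20, 2 and 34 reads (7.42, 32.2, 2.28 and 38.7 RPM). The double mutant was 4.33-fold above Col-0 (1.68 to 13.2), and the triple mutant was 17.0-fold above rdr6-11 (4.36 to 146). Between triple and double mutant the ratio was 1.2 (0.673 to 2.21). In TAIR10.1 the gene overlaps AT5G25340 on the opposite strand by 533 bases and an antisense RNA by 187 bases. AT5G25340 held 1, 16, 2 and 3 reads, with most of them in the double mutant, while EBF2 was highest in the triple mutant. Reads in the overlap could not be assigned to one gene.

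EBF1 took a larger share of the reads of both F-box genes in the decay mutants than in Col-0. In Col-0 EBF1 supplied 6 of their 12 reads, or 50% (21.1 to 78.9). The share was 89.6% (84.4 to 93.6) in the double mutant and 86.2% (81.3 to 90.3) in the triple mutant, and these intervals do not overlap that of Col-0. In rdr6-11 both genes together had 2 reads, both at EBF2, too few for a share. This comparison within a library does not depend on how libraries are scaled. Per kilobase of locus, EBF1 exceeded EBF2 by 7.58-fold (4.76 to 12.7) in the double mutant and 5.49-fold (3.81 to 8.14) in the triple mutant. In Col-0 EBF2 was at 1.14 times EBF1 (0.305 to 4.27).

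EIN2, the membrane protein that carries the signal from the receptor complex towards the nucleus, held 2, 11, 3 and 17 reads. It was 7.15-fold higher (1.56 to 66.4) in the double mutant than in the wild type and 5.67-fold higher (1.64 to 30.2) in the triple mutant than in rdr6-11. The triple and double mutants had a ratio of 1.09 (0.484 to 2.59). Both decay mutant libraries were thus above both others, on counts of at most 17.

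The transcription factor genes also held few reads. EIN3, the main factor of the response, held 9, 9, 8 and 18 reads, and its folds of 1.30 (0.457 to 3.70) for the double mutant over the wild type and 2.25 (0.932 to 5.99) for the triple mutant over rdr6-11 both had intervals that include 1. EIL1, its closest relative, held 3, 12, 1 and 11 reads and was 5.2-fold higher (1.40 to 28.7) and 11.0-fold higher (1.60 to 474) in these comparisons. Their summed reads were 12, 21, 9 and 29. This sum does not depend on how shared reads were divided between them, if each was counted at either gene but not at both. Whether reads were counted so is not known. The sum was 2.28-fold higher (1.07 to 5.07) in the double mutant than in the wild type and 3.23-fold higher (1.49 to 7.75) in the triple mutant than in rdr6-11. The first interval includes 1 under some other scalings, which shift every locus on the log2 scale. These were median of ratios (-0.19), TMM (-0.30) and totals without small RNA and organelle classes (-0.54). It stays above 1 with miRNA reads and with totals without organelle loci. The second interval stays above 1 under each scaling tried.

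At the 4 receptor genes of the list the counts were low and ordered otherwise. Their 4 loci together held 5, 6, 18 and 22 reads (6.19, 9.65, 20.5 and 25.1 RPM). The higher libraries here were the 2 with rdr6-11, and not those with the decay mutations. The rdr6-11 library was 3.31-fold above Col-0 (1.19 to 11.4) and the triple mutant 2.60-fold above the double mutant (1.02 to 7.83). The latter fold rests mainly on ERS1, with 17 of the 22 reads in the triple mutant and 3 of the 6 in the double mutant. Median of ratios scaling, a shift of -0.049 on the log2 scale, takes the near end of its interval below 1. The other scalings tried shift it upward. The decay mutations gave 1.56-fold (0.397 to 6.46) with RDR6 and 1.22-fold (0.627 to 2.42) without it. ETR2 (AT3G23150), a further receptor gene outside the list and these sums, held 2, 0, 7 and 0 reads. It did not share this order, being at 0 in the triple mutant. Its triple mutant level was below that of rdr6-11, with 1.44-fold lower as the near end of the counting interval. The rdr6-11 libraries are also those of the other length set, and organelle loci took 22.1% and 28.3% of their reads against 10.04% and 10.5% in the others. Their part in the receptor counts was not tested.

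ERS1, a receptor gene, held 3, 3, 8 and 17 of these reads, and the triple mutant was 4.01-fold above the double mutant (1.16 to 21.4). ETR1, the receptor gene in which ethylene-insensitive mutants were first described, held 2, 1, 4 and 4 reads, ERS2 held 0, 1, 5 and 1, and EIN4 held 0, 1, 1 and 0. CTR1, the kinase downstream of the receptors, held 0, 1, 0 and 3. At these depths no difference was detectable at ETR1, ERS2, EIN4 and CTR1. In TAIR10.1 ETR1 overlaps AT1G66345 by 38 bases and ERS1 overlaps AT2G40935 by 56 bases. AT1G66345 held 0 to 6 reads per library and AT2G40935 0 or 1.

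**Figure D2:**
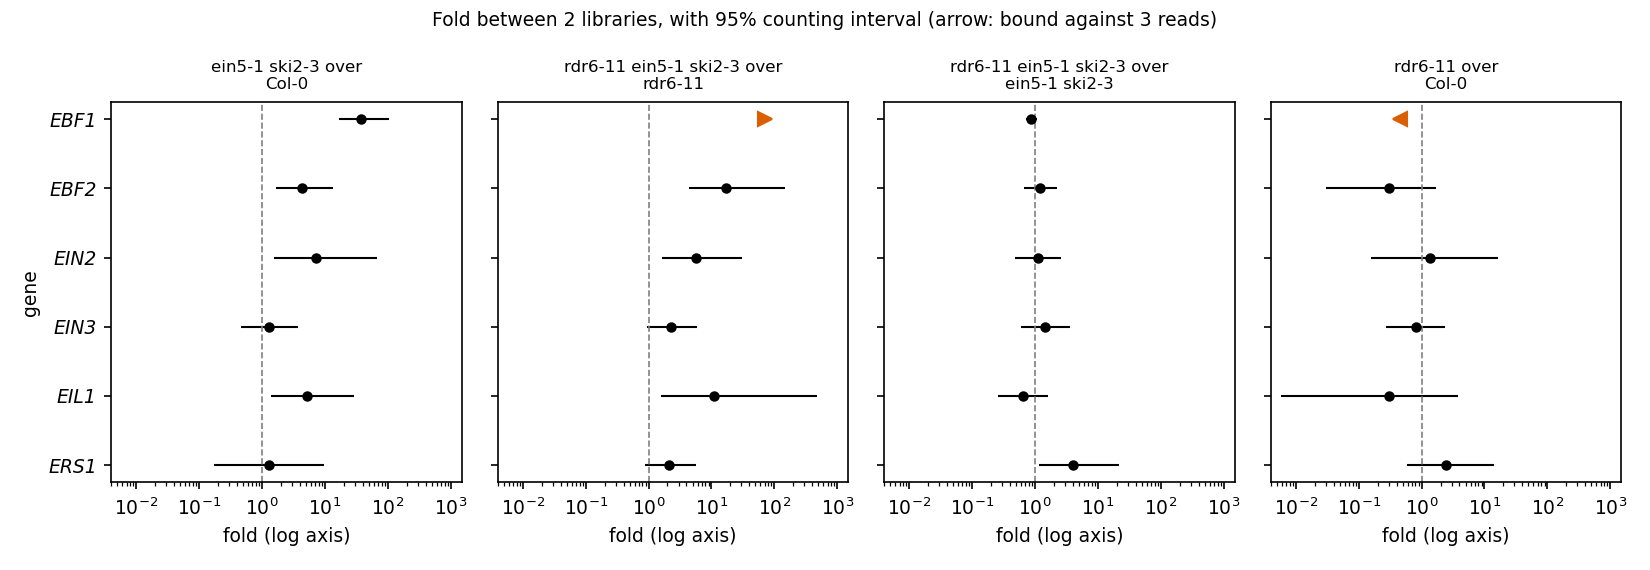
Fold between 2 libraries (log axis) for the 6 genes with at least 10 reads in any library, in 4 comparisons, with 95% counting intervals and arrows where a library held 0 reads and the value is a bound against 3 reads. EBF1 lies at 37.5-fold for the double mutant over the wild type and at 0.872 for the triple over the double mutant. For the triple mutant over rdr6-11 its arrow stands at 71.1-fold, with 57.3-fold as the near end of the counting interval.

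Ordered by level per kilobase of locus, genes next to each other were not separated in Col-0 and rdr6-11. In Col-0 EIN3 came first with 3.81 RPM per kilobase (1.74 to 7.24), followed by EBF2 with 2.68 and EBF1 with 2.35, and no gene differed from the next in order beyond counting error. In rdr6-11 EIN3 (3.12) and ERS1 (3.10) came first and EBF1 and CTR1 last at 0, again with no neighbours apart. Only neighbours were compared, and genes farther apart in the order could differ. In Col-0 the interval of EIN3 lay above those of ERS2 (up to 1.55), EIN2 (up to 1.51), EIN4 (up to 1.42) and CTR1 (up to 0.853). Those of EBF2 (from 0.984) and EBF1 (from 0.863) also lay above that of CTR1 there. In rdr6-11 the intervals of EIN3 (from 1.35) and ERS1 (from 1.34) lay above those of EBF1 (up to 1.33) and CTR1 (up to 0.785). In the double mutant EBF1 led with 88.2 RPM per kilobase (75.5 to 102), EBF2 followed with 11.6 (7.10 to 18.0) and EIL1 with 7.60. Only the step from EBF1 to EBF2 exceeded counting error there. In the triple mutant EBF1 led with 76.9 (66.9 to 87.9), then EBF2 with 14.0 (9.69 to 19.6) and EIN3 with 7.02. The steps from EBF1 to EBF2 and from EBF2 to EIN3 (1.99-fold, 1.09 to 3.75) exceeded counting error.

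To set the genes against the table, a rule of size was used: calls needed 50 reads or more in the higher library and a fold of 4 or more after adding 1 read to each count. A locus counted as measured with at least 10 reads in any library, which 6 of the 10 genes reached: EBF1, EBF2, EIN2, EIN3, EIL1 and ERS1. All 6 reached it only in a decay mutant library, so their folds are tilted towards those libraries by this choice. EBF1 was the single gene called higher in the double mutant over Col-0, against 5.2% of 3132 measured protein-coding loci. It was also the single one called higher in the triple mutant over rdr6-11, against 3.61%, and in the triple mutant over Col-0, against 5.36%. None of the 10 genes was called lower in any of these (background 0.447%, 0.0958% and 0.734%). Between triple and double mutant 0 of the 10 were called in either direction, where 1.88% of measured protein-coding loci were higher and 2.94% lower, and between rdr6-11 and Col-0 0 were called, with backgrounds of 0.223% and 0.447%. One gene in 6 is too few to read as a share above the background.

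By the counting interval alone, 4 of the 6 measured genes (EBF1, EBF2, EIN2 and EIL1) lay above 1 in the double mutant over Col-0, where 40.9% of measured protein-coding loci did, and none lay below (5.08%). These 4 also lay above in the triple mutant over rdr6-11, against 51.5%, and none below (3.74%). In the triple mutant over Col-0 the 4 above were EBF1, EBF2, EIN2 and ERS1 (53.4%), and none lay below (5.97%). In the triple mutant over the double mutant ERS1 alone lay above 1 (background 22.8%) and none lay below (20.5%), and in rdr6-11 over Col-0 none lay above (7.6%) and EBF1 alone lay below (5.46%). Both decay mutant libraries exceeded both others in RPM at 5 of the 6, all but ERS1, and at 55.5% of measured protein-coding loci. The reverse held at 0 of the 6 and at 6.26%. The median log2 fold of the 6 genes was 2.02 for the double mutant over Col-0 (2.25 without the pseudocount) and 2.38 for the triple mutant over rdr6-11 (2.98 with EBF1 in rdr6-11 set to 3 reads and no pseudocount). The medians over measured protein-coding loci were 1.27 and 1.42 (1.27 and 1.48 in the same form). In the double mutant over Col-0 and the triple mutant over rdr6-11, the list thus lay above protein-coding loci in general in these counts and medians. With 6 genes this is too few to read as a difference from the background, and EBF1 was the 1 call.

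Among the protein-coding loci called higher, EBF1 ranked 67 of 163 by fold in the double mutant over Col-0. In the triple mutant over rdr6-11 it ranked 1 of 113 with a pseudocount of 1 or 5 reads, and 5 when libraries at 0 were set to 3 reads. These comparisons share no library, and 69 loci were called higher in both, which is 42.3% of the 163 and 61.1% of the 113.

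**Figure D3:**
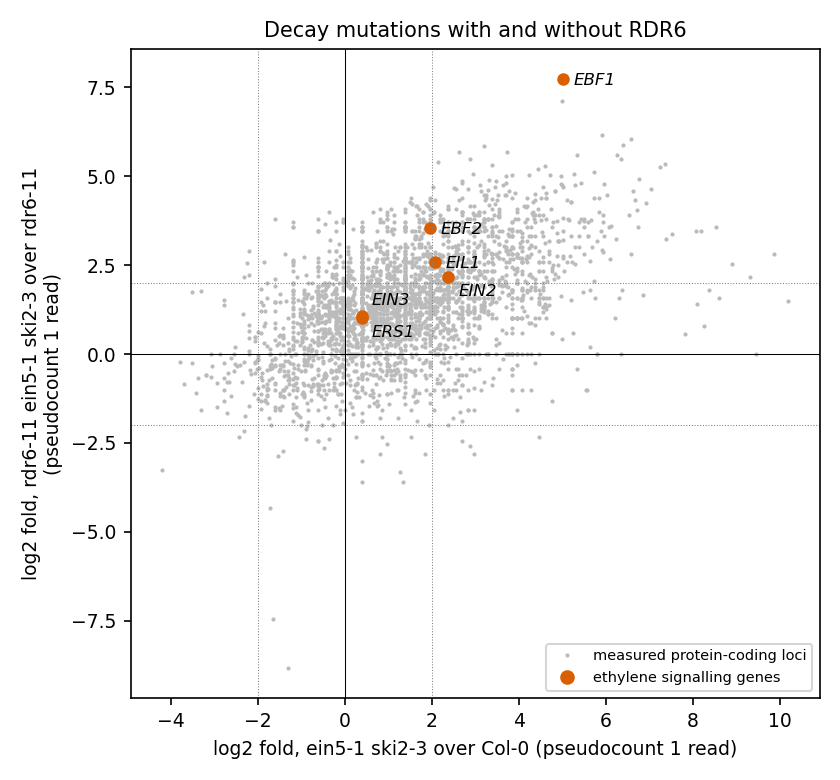
Log2 fold with a pseudocount of 1 read for the double mutant over Col-0 (x axis) and for the triple mutant over rdr6-11 (y axis) at measured protein-coding loci (grey) and the 6 measured ethylene signalling genes (orange), with dotted lines at 4-fold. EBF1 lies at the top, where its y value depends on the pseudocount because rdr6-11 held 0 reads, and the other 5 lie within the cloud, EIN3 and ERS1 at nearly the same place.

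The loci with the profile most like that of EBF1 were found by the distance between log2 levels in the 4 libraries, each centred on its own mean, among 873 loci with at least 50 reads in any library. The nearest was AT2G18560, with 4, 121, 0 and 137 reads (distance 0.48). AT1G13360 followed with 10, 713, 5 and 352 reads (1.67), and then RAP2.4 (AT1G78080), an AP2/ERF-type transcription factor gene, with 9, 101, 1 and 102 (1.72). BBX16 (AT1G73870), a B-box zinc finger gene, held 2, 218, 1 and 132 (1.73), and the glucosyltransferase gene UGT84A3 (AT4G15490) held 3, 73, 0 and 38 (1.77). For EBF2 the nearest were AT4G26540 (10, 43, 5 and 61 reads, distance 0.32), the cysteine protease gene RD19 (AT4G39090, 24, 57, 9 and 78, 0.51), AT4G34950 (13, 28, 6 and 55, 0.58), the cell wall gene LRX3 (AT4G13340, 33, 168, 14 and 236, 0.61) and AT2G03750 (18, 40, 5 and 115, 0.64).

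Further pathway genes were examined in 4 lists, by the same rules. Of 9 other signalling genes 2 were measured and 0 called. They were RTE1 (AT2G26070), which acts with the receptor ETR1, and RAN1 (AT5G44790), a copper transporter that supplies the receptors. RAN1 had the most reads of all the pathway genes listed, with 1257, 1112, 1629 and 1180 reads. Its folds lay close to 1, at 1.15 (1.06 to 1.25) for the double mutant over the wild type and 0.725 (0.672 to 0.782) for the triple mutant over rdr6-11. The first became 0.934 with TMM scaling and the second 1.06 with scaling to miRNA reads. RTE1 held 13, 33, 10 and 2 reads. It was 3.30-fold higher (1.69 to 6.83) in the double mutant than in the wild type, but 4.99-fold lower (1.06 to 46.9) in the triple mutant than in rdr6-11 and 23.3-fold lower (5.96 to 200) than in the double mutant. RTE1 was thus highest in the double mutant and lowest in the triple mutant.

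Of 16 genes of ethylene synthesis and its control 1 was measured and 0 called. ACO4 (AT1G05010), an ACC oxidase that makes ethylene in the last step of its synthesis, held 33, 53, 54 and 139 reads in the same order. Its folds were 2.09 (1.33 to 3.33) for the double mutant over the wild type and 2.58 (1.87 to 3.60) for the triple mutant over rdr6-11. The first became 1.44 (0.914 to 2.29) with totals without small RNA and organelle classes, and its interval stayed above 1 under the other scalings. The second interval stayed above 1 under each scaling tried. All 9 ACC synthase genes held at most 6 reads in any library. The summed leaf markers were 1.49-fold (1.27 to 1.75) and 2.37-fold (2.11 to 2.66) higher in the same comparisons. Single markers differed, from 0.616-fold (RCA) to 1.74-fold (CAB1) in the double mutant over the wild type. In the triple mutant over rdr6-11 they ran from 1.85-fold (GAPB) to 4.70-fold (RBCS1A). The part of leaf content in the ACO4 values was not tested.

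Of 21 listed genes 5 were measured, the transcription factor genes ERF4, ERF104, EDF1, EDF2 and EDF4, and all 5 had both decay mutant libraries above both others, as 55.5% of measured protein-coding loci did. ERF4, ERF104, EDF1 and EDF4 reached 10 reads only in decay mutant libraries, so this order is tilted by the choice of measured genes. EDF2 (AT1G68840, also named RAV2 or TEM2) held 8, 129, 28 and 135 reads and was the 1 gene called higher. It was called in the double mutant over Col-0 (21-fold, 10.3 to 49.6, background 5.2%), the triple mutant over rdr6-11 (4.83-fold, 3.19 to 7.54, background 3.61%) and the triple mutant over Col-0 (15.5-fold, 7.67 to 36.7, background 5.36%). In the triple mutant EDF2 stood at 0.741 times its level in the double mutant (0.578 to 0.951), a direction that turned with scaling to miRNA reads (1.28, 0.994 to 1.64). EDF1 (AT1G25560, TEM1) held 1, 22, 0 and 22 reads and EDF4 (AT1G13260, RAV1) held 1, 15, 5 and 16. ERF4 (AT3G15210), a repressor of the ERF family, held 1, 44, 3 and 26 reads, and its level in the triple mutant was 0.418 times that in the double mutant (0.247 to 0.695). ERF104 (AT5G61600) held 0, 23, 7 and 24.

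The sum over the 21 response genes was 26, 269, 58 and 250 reads in the 4 libraries. It was 13.5-fold higher (8.98 to 20.98) in the double mutant than in the wild type and 4.32-fold higher (3.23 to 5.85) in the triple mutant than in rdr6-11. The baselines of these folds differed, as the sum was 2.05-fold higher (1.27 to 3.40) in rdr6-11 than in Col-0, and EDF2 3.22-fold (1.43 to 8.17). EDF2 alone supplied 129 of the 269 reads in the double mutant and 135 of the 250 in the triple mutant. No sum without EDF2 was taken. Classic ethylene and defence outputs added little, as PDF1.2 and the basic chitinase gene were at 0 reads in every library and ERF1 held 1 read in all. In the SCF core, the ubiquitin ligase that EBF1 and EBF2 join, CUL1 (AT4G02570) was the 1 measured gene of 4, with 0, 2, 3 and 10 reads and no call. The 4 core genes summed to 7, 11, 4 and 18 reads, against 173 and 213 at EBF1 alone in the decay mutants.

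**Figure D4:**
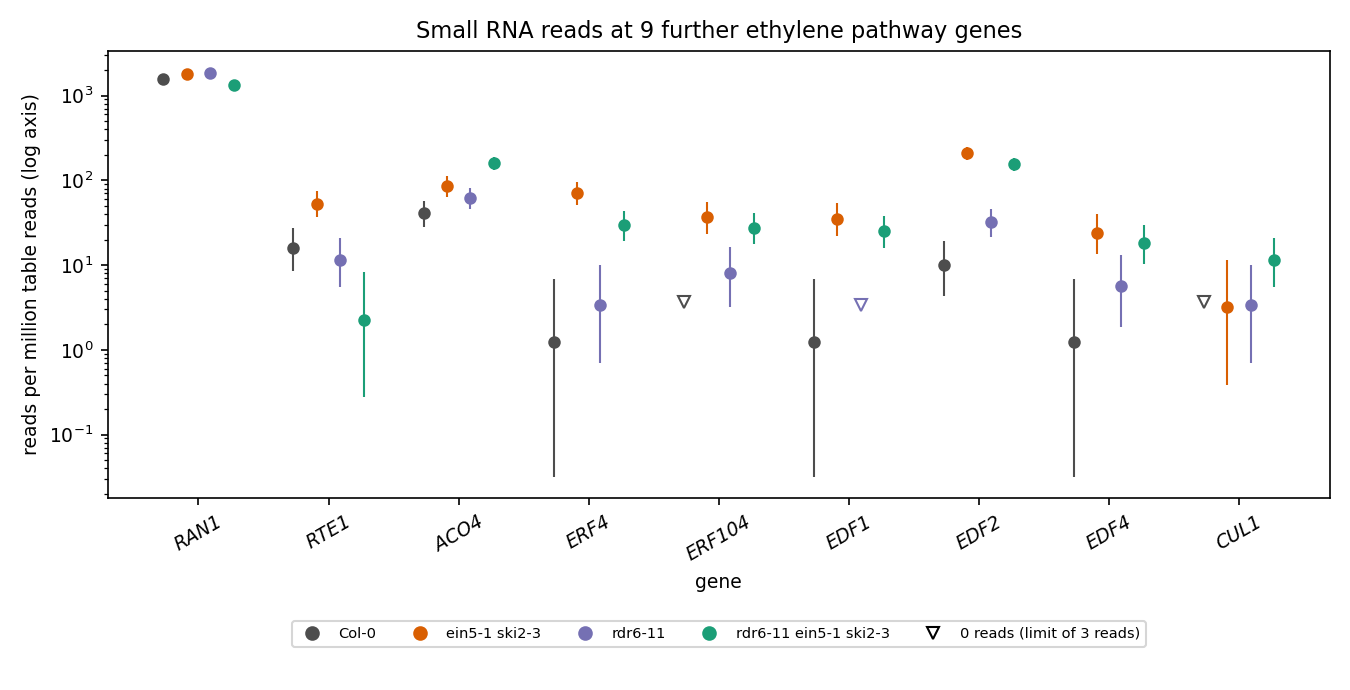
RPM (log axis) at 9 further ethylene pathway genes with at least 10 reads in any library, with 1 point per library, 95% counting intervals as bars and open triangles at the limit of 3 reads where the count was 0. EDF1, EDF2, EDF4, ERF4 and ERF104 are higher in both decay mutant libraries, RAN1 is near-level, and RTE1 is lowest in the triple mutant.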

How the data were processed

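Reads per locus were taken from the authors' deposited table, which gives raw read counts and the authors' RPKM values for 4 libraries, per the file headers. The submitters' processing notes list the TAIR9 build with BWA and CASAVA 1.8.2 and give no roles. How reads were trimmed, stranded or placed at several matches is not stated there. Groups are the genotype labels. RPKM served to recover the library totals the authors scaled to, of which the table holds 97.6% to 99.0%, and locus lengths. RPKM is 0.001 where the count is 0. Counts were scaled to table totals (RPM).

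No test was made, since each genotype has 1 library. Folds carry no pseudocount and have exact conditional binomial (Clopper-Pearson) 95% intervals, levels exact Poisson intervals and shares exact Clopper-Pearson intervals. Bounds set a library at 0 to 3 reads. Median folds and calls use a pseudocount of 1 read. All 10 members are named. Of each further list, genes with at least 10 reads in any library are named where called or among the 4 of largest total. ETR2, EDF4, the ACC synthase genes, PDF1.2, the chitinase gene and ERF1 lie outside that rule and were chosen after their values were seen. Members and lists were chosen with earlier results of these data known. The rule and the intervals were tried on simulated counts that held counting error only. The intervals were checked only at loci with more Col-0 reads than any of the 10 members had. Names, overlaps and 21-base windows come from RefSeq TAIR10.1, another build than the authors', so no genome coordinates are given. Alternatives changed scaling (median of ratios, edgeR 4.0.16 TMM, miRNA reads, totals without some classes), minimum, fold and pseudocount. The counts of intervals away from 1, the count of genes with both decay mutant libraries on top, and totals without organelle loci were added after the data were seen. Python 3.11.15, scipy 1.17.1 and Biopython 1.88 were used. One gene of the synthesis list is not reported here.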

Additional observations from a re-analysis of the deposited data

Results flagged for a closer look

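RTE1 and RAN1 went opposite ways with the decay mutations depending on RDR6, with both counting intervals away from 1, and the difference itself was not tested. RTE1 was at 3.30 times the Col-0 level in the double mutant and at 0.200 times the rdr6-11 level in the triple mutant, from 13, 33, 10 and 2 reads. RAN1 was at 1.15 and 0.725 times. The RAN1 pair lay on the same side of 1 with TMM scaling (0.934 and 0.604), with totals without small RNA and organelle classes (0.792 and 0.551) and with scaling to miRNA reads (1.12 and 1.06). RTE1 kept opposite directions under each of the 5 other scalings tried, though its second interval then reached 1.37 with scaling to miRNA reads and 1.02 with totals without organelle loci.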

How the results depend on the processing

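EBF1 remained called higher in the double mutant over Col-0, the triple mutant over rdr6-11 and the triple mutant over Col-0 under all 11 alternatives, with log2 folds from 4.40 to 5.02, 5.45 to 8.29 and 4.19 to 5.56. Only the minimum changed the number of genes called. A minimum of 20 reads added EBF2 in the triple mutant over rdr6-11 and over Col-0 (2 genes each). With no minimum 3 genes were higher in the double mutant over Col-0, 5 in the triple mutant over rdr6-11 and 4 in the triple mutant over Col-0, and in rdr6-11 over Col-0 ERS2 was higher (1) and EBF1 lower (1). Calls over the whole table of 33602 loci rose as well, to 3103, 3431 and 2664 higher in the first 3 comparisons. In rdr6-11 over Col-0 they reached 622 higher and 982 lower. No share of measured protein-coding loci was taken with these minimums, so the added genes are not read against a background. The log2 fold of EBF1 in the triple over the double mutant turned from -0.20 to 0.58 with scaling to miRNA reads and to 0.12 with totals without organelle loci, which leave out unequal organelle reads by construction. The intervals of 3 to 4 genes lay above 1 in the double mutant over Col-0 under the 6 scalings (EIL1 was lost with totals without small RNA and organelle classes), 4 to 6 in the triple mutant over rdr6-11 and 1 to 4 in the triple over the double mutant, where the 4 came with miRNA reads. The 6 also came with miRNA reads. That scaling put 67.4% of measured protein-coding loci above 1 in the triple mutant over rdr6-11, against 51.5% in the main setting. In the triple over the double mutant it put 45.6% above 1, against 22.8%. With totals without small RNA and organelle classes EIN3 no longer had both decay mutant libraries on top, and the share of measured protein-coding loci above 1 in the double mutant over Col-0 fell from 40.9% to 30.4%, with 10.2% below against 5.08%. Over the whole table the loci called ranged, between fold or minimum settings, from 86 to 3103 higher (175 in the main setting) for the double mutant over the wild type and from 45 to 3431 (118) for the triple mutant over rdr6-11. No paired analysis was possible because each genotype has 1 library. Depth limits ETR1, ERS2, EIN4 and CTR1, with at most 5 reads.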
